A study of Mus musculus with 4 samples.

Results

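The genes described here are 8 genes commonly used as markers of reactive astrocytes, Gfap, Vim, Serpina3n, Lcn2, Chil1, Steap4, S1pr3 and Aspg, followed through mouse brain slices after a photothrombotic (PT) injury, a focal ischaemic lesion made by light through the skull over the cortex. They are 8 of the 32285 genes listed in the files, of which 23415 had at least 1 unique molecular identifier (UMI, 1 captured RNA molecule). The genes were selected on their levels (UMIs per 10000 in each slice) by distance from fibrotic tissue. Those levels, and the differences of the 8 genes between zones, time points and genotypes that are computed from them, are therefore given as a description with no test. A spot was called fibrotic where it had at least 5 UMIs of Col1a1, the main collagen chain made by fibroblasts, per 10000 UMIs. Distance was counted in steps on the hexagonal array to the nearest fibrotic spot of the same slice: the ring is 1 to 3 steps away and distant tissue is 6 or more steps away.

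Spatial transcriptomes (Visium, in which poly(A) RNA of a thin section is captured on an array of barcoded spots) were made from fresh frozen brain on 4 capture areas, each holding 2 slices. The first area held 1 slice at rest (day 0) and 1 slice at 2 days post-injury (dpi), and the others held 2 slices at 7 dpi, 2 at 21 dpi and 2 at 21 dpi from the genotype Cthrc1(creER); R26(DTA), called deleter. The first 3 areas are labelled WT, all slices but the one at rest had a PT injury, and by the study's methods each slice came from a separate mouse. In the deleter, Cre driven by Cthrc1, a gene of myofibroblasts, is meant to switch on a toxin in those cells, but the study describes the deletion as undetectable in these mice, so the deleter slices serve here mainly as another pair of 21 dpi slices from another area. The labels give no age or sex of the mice, and which of the pieces on the first area is the one at rest was taken from a stated number of spots, the smaller piece being the one at rest, not from a label.

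Astrocytes answer injury by reactive gliosis: they enlarge, build more intermediate filament protein and, around a lesion, form a dense glial border against the fibrotic core. Signals through gp130 family receptors and the transcription factor STAT3, together with NF-kappaB, are known to drive much of the change in expression. None of these genes is restricted to astrocytes: Vim is abundant in fibroblasts, macrophages and endothelium, and Lcn2 is also made by neutrophils, so a spot, which covers several cells, does not say which cell held the RNA.

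By role, the intermediate filament genes are Gfap, which encodes the glial fibrillary acidic protein (chr11:102887336-102900912, minus strand, GRCm38), and Vim, which encodes vimentin (chr2:13573927-13582826, plus strand). The secreted proteins are Serpina3n, a serine protease inhibitor of the acute phase (chr12:104406729-104414329, plus), Lcn2, lipocalin 2, which binds iron-carrying siderophores (chr2:32384633-32388252, minus), and Chil1, a chitinase-like glycoprotein also known as YKL-40 (chr1:134182176-134190181, plus). The membrane proteins are Steap4, a metalloreductase of iron and copper (chr5:7960457-7982213, plus), and S1pr3, a receptor for sphingosine-1-phosphate (chr13:51408639-51422797, plus). Aspg encodes an asparaginase (chr12:112106679-112127559, plus).

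Lcn2, Chil1 and Steap4 had profiles that were close to each other, and the 250 bases before each gene's start were searched on both strands for the letters of motifs of factors known for the acute phase response. The STAT motif TTCNNNGAA was held by 7.18% of 27025 RefSeq promoters (GRCm38.p6), the C/EBP motif TTGCNNAA by 9.55% and the NF-kappaB motif (GGG, any 2 bases, TTTCC) by 1.4%. Among the 8 genes the STAT letters were found before Steap4 alone, the C/EBP letters before Steap4 and Lcn2 and the NF-kappaB letters before Steap4, Serpina3n and Vim. These windows are counted from the RefSeq start, and the matches of Lcn2 and Vim lie inside an annotated GENCODE exon of the gene, within the spans given above. The 2 sequences shown are those of the genes with the closest profiles, of which 1 holds all 3 motifs and the other none. They are read 5′ to 3′ on the gene's strand, without bases inside an annotated exon, with matches in capitals (for Steap4, in order, NF-kappaB on the opposite strand 226 bases before the start, STAT at 116 and C/EBP at 87).
Steap4 (chr5:7960222-7960456, plus): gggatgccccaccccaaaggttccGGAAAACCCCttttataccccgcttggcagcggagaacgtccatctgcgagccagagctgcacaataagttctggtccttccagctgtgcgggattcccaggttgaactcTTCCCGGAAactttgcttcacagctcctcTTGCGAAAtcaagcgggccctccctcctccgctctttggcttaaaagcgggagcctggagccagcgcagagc
Chil1 (chr1:134181906-134182155, plus): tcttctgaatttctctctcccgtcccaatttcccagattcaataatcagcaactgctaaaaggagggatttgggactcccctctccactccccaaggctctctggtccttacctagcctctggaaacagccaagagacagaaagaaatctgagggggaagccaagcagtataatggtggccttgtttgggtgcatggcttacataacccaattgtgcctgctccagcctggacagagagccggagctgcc

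A match of letters is a description of these windows, and binding was not measured here.

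The slices held at least 827 spots and 11332780 to 23677298 UMIs. The 2 dpi slice was the shallowest per spot, with a median of 2633.5 UMIs and 21.7% of its spots under 1000 UMIs, against medians of up to 16158 in the other slices. Fibrotic spots numbered 3 at rest, 26 at 2 dpi, 112 and 392 at 7 dpi, 170 and 203 at 21 dpi and 193 and 274 in the deleter. The 7 and 21 dpi slices lay on different areas and differed in the X inactivation transcript Xist, at 1.06 and 0.948 UMIs per 10000 at 7 dpi against 0.00229 and 0.000882 at 21 dpi, so time, area and the sex that these genes point to cannot be told apart in the WT slices. Deleter slice 1 had Xist at 0.803 and deleter slice 2 at 0.00802.

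At 2 dpi all 8 genes stood higher over the whole slice than at rest. Gfap stood at 0.726 UMIs per 10000 at rest and 9.38 at 2 dpi, a 12.9-fold difference (95% Poisson interval 12.2 to 13.7), and Vim at 0.411 and 11.6, 28.3-fold (26.2 to 30.6). Serpina3n stood at 0.0807 and 2.55 (31.6-fold, 26.5 to 37.9). Lcn2 went from 21 UMIs in the slice at rest to 1564 at 2 dpi, or 0.0128 and 1.19 per 10000, a ratio of 93.0 (60.7 to 151).

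The other 4 genes covered a wide range of ratios. Chil1 had the smallest ratio, 3.56 (2.86 to 4.45, 0.0691 and 0.246 per 10000), and Aspg the next, 4.58 (2.89 to 7.53, 0.0147 and 0.0672). S1pr3 was 10.2-fold higher (7.91 to 13.2, 0.0428 and 0.435), and Steap4, with 4 and 140 UMIs, was 43.7-fold higher (16.7 to 163). Of 15197 genes with at least 20 UMIs in both slices together, 15.1% were at least 2-fold higher at 2 dpi, as were 8 of the 8 genes. Nothing is read from the count of the 8, which were selected on their levels in the slices of this series. There was 1 slice at rest and 1 at 2 dpi, so no test was possible and the intervals cover counting error only. Averaging over spots in place of summing lowered all 8 ratios: Gfap to 6.58, Vim to 18.4, Serpina3n to 24.3, Lcn2 to 50.1, Chil1 to 2.58, Steap4 to 21.5, S1pr3 to 6.21 and Aspg to 2.60.

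Of the genes of the pathway lists with at least 20 UMIs in both slices together, those at least 2-fold higher at 2 dpi were 6 of 6 other pan-reactive genes, 8 of 12 neurotoxic-type (A1), 9 of 11 protective-type (A2), 8 of 13 of the gp130 to STAT3 route, 2 of 5 filament partners and 2 of 16 homeostatic astrocyte genes. Timp1, an inhibitor of matrix metalloproteases, was 90.0-fold higher than at rest, Cd44, a hyaluronan receptor, 28.0-fold and Nes, the filament protein nestin, 23.7-fold. The filament partners Synm and Plec stood at ratios of 0.999 and 1.15. Tgm1, a transglutaminase of the A2 list, went from 5 to 1393 UMIs. Stat3 stood 3.79-fold higher and Socs3, its feedback inhibitor, 13.9-fold, whereas the receptors Lifr and Cntfr stood at ratios of 0.802 and 0.774 and the kinase Jak1 at 1.02. Of the homeostatic astrocyte genes, the water channel Aqp4 was 2.04-fold higher, whereas the glutamate transporter Slc1a2 stood at a ratio of 0.604 and the gap junction gene Gja1 at 0.765. The neutrophil genes S100a8 and S100a9 were 93.1- and 92.5-fold higher, a ratio like that of Lcn2. Their part in the Lcn2 level was not tested. Markers of other cells differed as well, with 5 of 5 ependymal, 9 of 10 macrophage and microglia and 5 of 6 fibroblast genes at least 2-fold higher. Of oligodendrocyte genes 1 of 8 was, and of neuronal genes 0 of 5, with the neuronal Snap25 at a ratio of 0.498. The part of such differences in tissue content in the ratios of the 8 genes was not tested. In bulk sums of spots such as these, fewer cells of a type and less RNA per cell cannot be told apart.

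Since few spots were fibrotic at 2 dpi, distance in that slice was also counted from the largest connected group of RNA-poor spots (311 of the 375 spots under 1000 UMIs). Gfap was low inside and around that group, at 2.68 UMIs per 10000 inside and 2.97 at 4 to 5 steps, and then higher outward, at 7.66 at 6 to 8 steps, 9.12 at 9 to 12 and 12.8 at 13 and more. Serpina3n ran the same way, from 0.946 inside to 1.31, 2.23, 2.13 and 3.55 over the same bands. Lcn2 instead peaked close to the group: it was 0.683 inside, 1.65 at 4 to 5 steps, 2.43 at 6 to 8 steps and 0.975 and 0.820 farther out. Vim had a peak of its own at 3 steps (14.4), a dip to 8.29 at 4 to 5 steps and its highest level, 14.8, in the farthest band. The levels inside the group rest on spots with few UMIs.

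**Figure D1:**
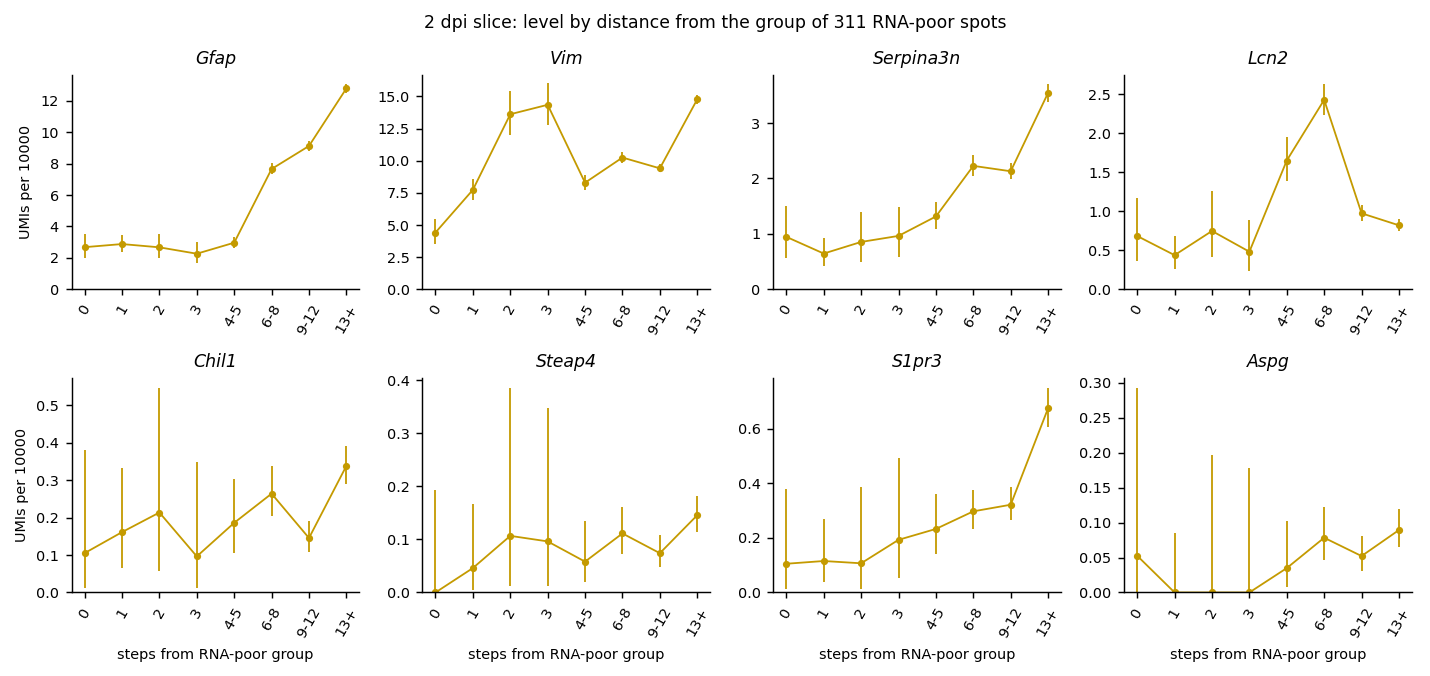
Level of each gene in the 2 dpi slice (y axis, UMIs per 10000, from 0) by the number of steps from the connected group of 311 RNA-poor spots (x axis, 0 is inside the group). Points are sums over all spots of a band and bars are 95% Poisson intervals. Gfap and Serpina3n are highest at 13 and more steps, at 12.8 and 3.55, whereas Lcn2 is highest at 6 to 8 steps, at 2.43.

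Over whole slices, the filament genes did not separate the later groups. Gfap was at 7.94 and 6.89 UMIs per 10000 at 7 dpi, 6.33 and 7.33 at 21 dpi and 8.15 and 4.36 in the deleter, so the injured groups overlapped and the slice at rest, at 0.726, was far below all of them. Vim stood at 6.35 and 7.88, then 5.31 and 5.36, then 7.82 and 3.46, below its 2 dpi level of 11.6 in every slice. Serpina3n was likewise highest at 2 dpi, with 2.13 and 1.79 at 7 dpi and 1.70 and 1.39 at 21 dpi.

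Lcn2 and Chil1 took another order. Lcn2 was at 0.330 and 0.457 at 7 dpi, below 2 dpi (1.19), and at 4.82 and 2.51 at 21 dpi and 7.01 and 2.12 in the deleter. Chil1 was at 0.202 and 0.152 at 7 dpi, 1.51 and 0.872 at 21 dpi and 2.15 and 0.693 in the deleter. For both, the 21 dpi and deleter slices overlapped each other and all 4 lay above the slices at rest, 2 and 7 dpi. Steap4 had the same order, with 0.0293 and 0.0481 at 7 dpi against 0.642 and 0.364 at 21 dpi.

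The distance profile of Gfap moved inward between the time points. At 7 dpi its highest level lay 3 steps from fibrotic spots in slice 1 (15.1 UMIs per 10000) and 5 steps in slice 2 (14.8), whereas fibrotic spots themselves held 4.96 and 5.76. In slice 1 it climbed from 4.96 at distance 0 through 6.29 and 11.2 to 15.1, and was still at 12.1 at 5 steps. At 21 dpi the highest level was at 1 step in all 4 slices, at 11.3 and 18.6 in WT and 15.8 and 12.96 in the deleter. The first step below 0.5 of the peak level was the 7th in both 7 dpi slices, against the 5th and 3rd in the 21 dpi slices and the 4th and 2nd in the deleter.

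Serpina3n went with it. Its peak lay at 2 steps (4.92) and 5 steps (4.0) at 7 dpi and at 1 step in all 4 slices at 21 dpi (3.68, 3.28, 5.16 and 3.22). S1pr3 peaked at 2 and 5 steps at 7 dpi (0.613 and 0.610) and at 0 or 1 step at 21 dpi (0.992, 0.711, 1.24 and 0.721).

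Vim, in contrast, was highest in the fibrotic spots themselves in 5 of these 6 slices, at 15.2 and 13.2 at 7 dpi, 15.1 and 11.6 at 21 dpi and 10.3 in deleter slice 2. In deleter slice 1 the peak was at 1 step, at 16.1. Vim also went with macrophage and microglia markers over the spots of the fibrotic and ring zones (358 to 650 per slice). The Pearson correlation of Vim with their sum came to 0.557 and 0.758 in the 7 dpi slices, 0.799 and 0.710 in those at 21 dpi and 0.805 and 0.728 in the deleter. With the summed astrocyte markers it was -0.265 and -0.497 at 7 dpi and between -0.176 and -0.039 in the 21 dpi and deleter slices. Spots of a slice share its library and depth, so these are descriptions without a test, and the label of a reactive astrocyte gene does not say which cells held Vim here.

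**Figure D2:**
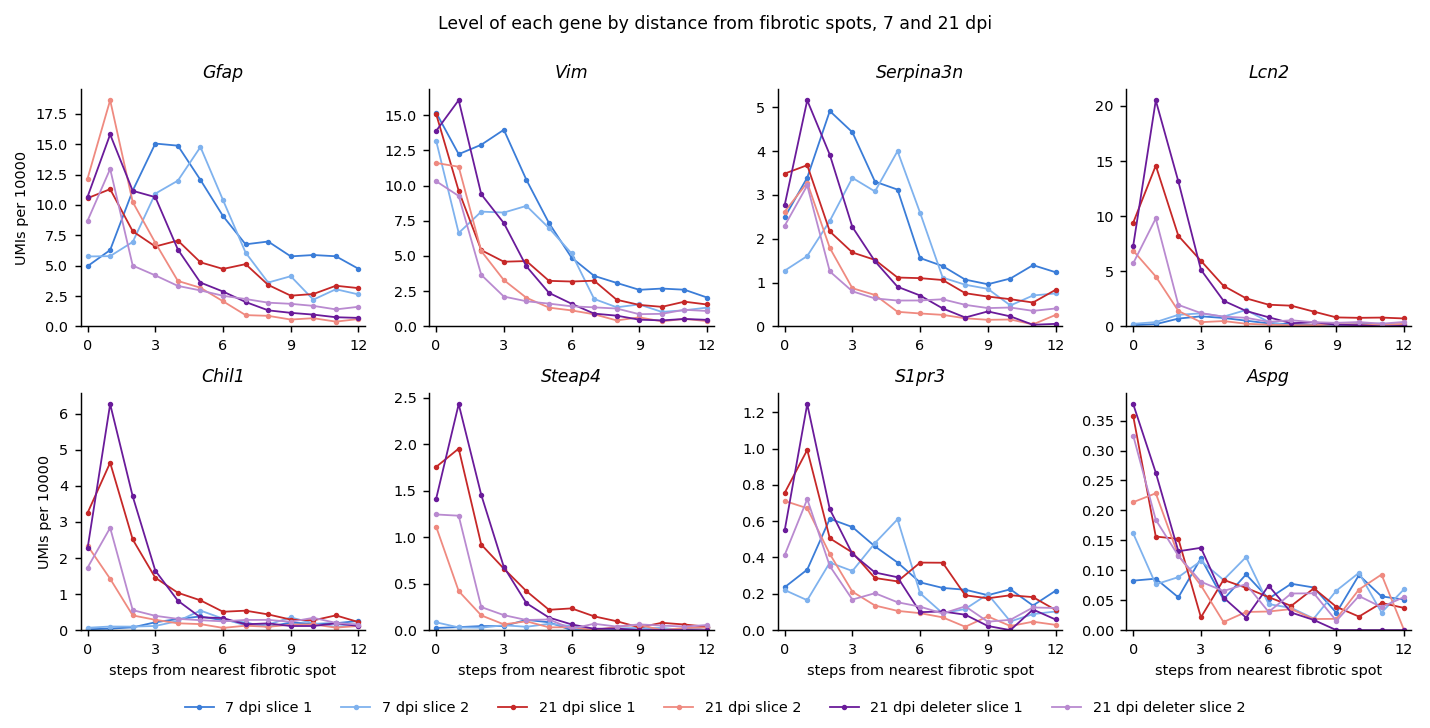
Level of each gene (y axis, UMIs per 10000, from 0) at each step from the nearest fibrotic spot (x axis, 0 is the fibrotic spots), with 1 line for each 7 dpi, 21 dpi and deleter slice. Gfap peaks at 3 and 5 steps at 7 dpi and at 1 step in the 4 slices at 21 dpi, Vim is highest at 0 in 5 of 6 slices, and the lines of Lcn2, Chil1 and Steap4 at 7 dpi lie along the bottom.

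Chil1 was the exception at 7 dpi, when it was lower near fibrosis than far from it. It stood at 0.0236 and 0.0660 UMIs per 10000 in fibrotic spots, 0.112 and 0.103 in the ring, 0.344 and 0.388 at 4 to 5 steps and 0.210 and 0.202 in distant tissue. The mean log2 ratio of ring to distant was -0.93 ± 0.05 (SD, n = 2) for Chil1, against 2.48 ± 1.05 for Lcn2, 2.00 ± 0.28 for Vim, 1.43 ± 0.62 for Serpina3n and 0.72 ± 0.21 for Gfap. The other 7 genes were higher in the ring than in distant tissue in both 7 dpi slices.

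At 21 dpi and in the deleter, all 8 were higher in the ring in both slices. The mean log2 ratio at 21 dpi was 3.54 ± 0.81 for Lcn2, 3.40 ± 0.08 for Steap4, 2.92 ± 0.05 for Chil1 and 2.53 ± 1.90 for Gfap, whose slices were 2.27- and 14.7-fold. In the deleter, Steap4 was 82.5- and 13.2-fold and Lcn2 39.9- and 15.3-fold higher in the ring than far from it. Fibrotic and ring spots made up 38.7% and 51.1% of the spots of the 21 dpi slices and held 77.7% and 96.1% of their Lcn2 UMIs, 78.0% and 93.1% of Chil1 and 56.8% and 89.8% of Gfap. At 7 dpi they were 36.7% and 68.6% of spots and held 36.0% and 65.0% of the Lcn2 UMIs and 10.9% and 33.2% of those of Chil1.

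**Figure D3:**
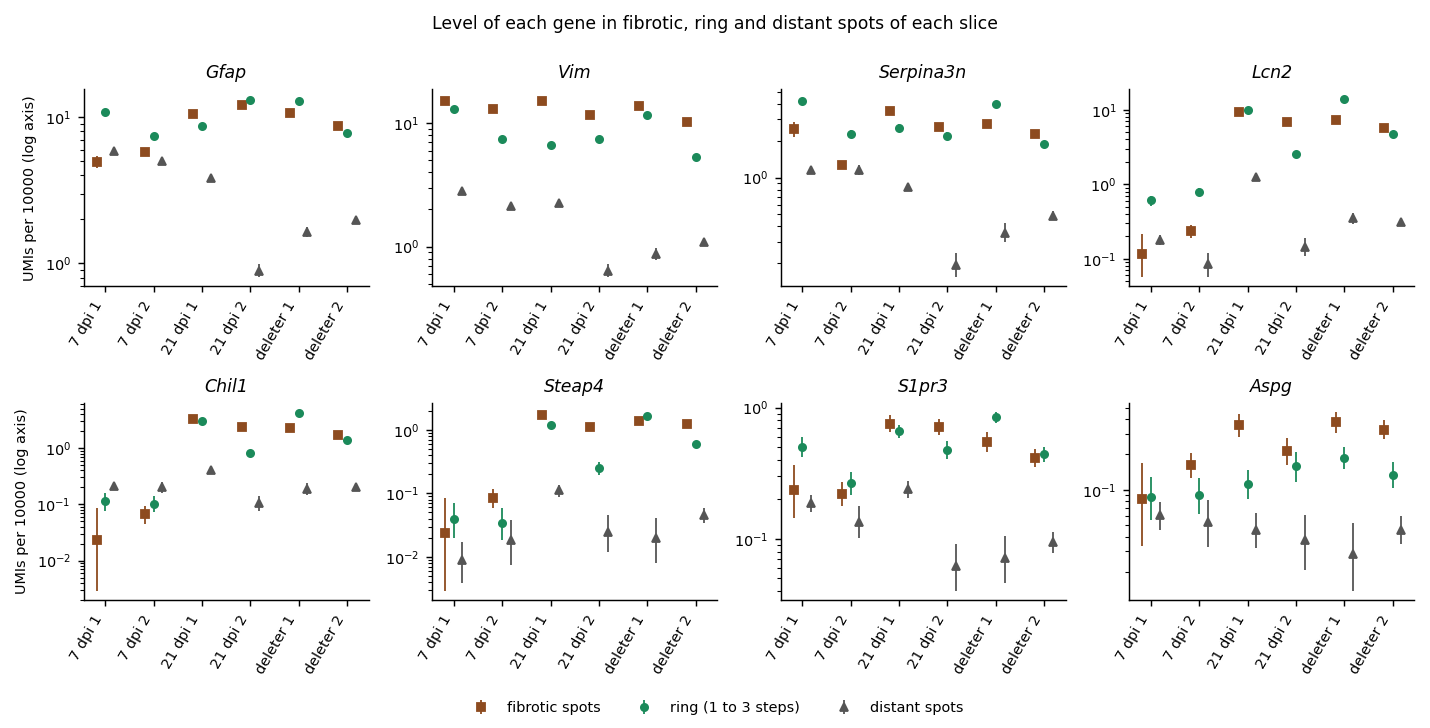
Level of each gene (y axis, UMIs per 10000, log axis) in fibrotic, ring and distant spots of each 7 dpi, 21 dpi and deleter slice (x axis), with bars for 95% Poisson intervals. In the ring and in fibrotic spots the 4 slices at 21 dpi lie above both 7 dpi slices for Lcn2, Chil1 and Steap4. In distant spots the groups overlap for Lcn2 and Chil1, whereas for Steap4 both WT slices at 21 dpi lie above both 7 dpi slices.

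Time was compared next, with UMIs summed over the spots of a zone in each slice and all genes fitted with edgeR's quasi-likelihood model, 2 slices against 2. The test is used for genes outside the 8, and the differences of the 8 are given with their standard errors alone. In the ring, Lcn2, Chil1 and Steap4 stood higher at 21 than at 7 dpi. Lcn2 was at 0.609 and 0.791 UMIs per 10000 at 7 dpi and at 9.86 and 2.53 at 21 dpi, a log2 difference of 3.12 ± 0.56 (SE). Chil1 stood at 0.112 and 0.103 against 2.97 and 0.829 (4.12 ± 0.59) and Steap4 at 0.0399 and 0.0344 against 1.22 and 0.250 (4.31 ± 0.77). For each of them both 21 dpi slices lay above both 7 dpi slices, slice 1 well above slice 2. Of 13305 genes tested, 0.714% were called higher at 21 dpi and 436 genes lower. These 3 of the 8 genes were among those called higher, from which nothing is read because the 8 were selected on the same levels.

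The other 5 genes differed less. Gfap was at 10.8 and 7.43 at 7 dpi and 8.72 and 13.1 at 21 dpi (0.22 ± 0.28), and the groups overlapped. Vim stood at 13.02 and 7.45 against 6.71 and 7.48 (-0.56 ± 0.28), again with overlap. Serpina3n, S1pr3 and Aspg had log2 differences of -0.48, 0.56 and 0.56. The median over the 8 genes was 0.56, given as a description only, since the 8 were selected on these levels.

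The size of the differences in the ring depends on single slices and on how fibrotic spots are drawn. With a Col1a1 minimum of 3 in place of 5, Lcn2, Chil1 and Steap4 differed by 2.29, 2.52 and 3.25 on the log2 scale, without 21 dpi slice 1, the slice with most Lcn2, by 1.81, 2.90 and 2.71, and without 21 dpi slice 2 by 3.79, 4.76 and 5.02. Without 7 dpi slice 1 they were 2.95, 4.19 and 4.41 and without 7 dpi slice 2 they were 3.27, 4.01 and 4.15, and none of the 3 was among the genes called in these fits or with the minimum of 3.

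In fibrotic spots the same genes again stood higher at 21 dpi. Lcn2 was at 0.118 and 0.234 UMIs per 10000 at 7 dpi and 9.41 and 6.87 at 21 dpi (log2 difference 5.35 ± 0.28). Chil1 stood at 0.0236 and 0.0660 against 3.25 and 2.34 (5.62 ± 0.31), and Steap4 at 0.0236 and 0.0842 against 1.76 and 1.11 (4.34 ± 0.35). In all 3 both 21 dpi slices lay above both 7 dpi slices, and at 7 dpi Chil1 and Steap4 were scarce and differed severalfold between the slices.

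Gfap and S1pr3 were also higher in both 21 dpi slices. Gfap stood at 4.96 and 5.76 against 10.6 and 12.2 (1.08 ± 0.16) and S1pr3 at 0.236 and 0.221 against 0.756 and 0.711 (1.71 ± 0.19). Vim, at 15.2 and 13.2 against 15.1 and 11.6 (-0.09 ± 0.18), overlapped between the time points. Serpina3n was at 2.49 and 1.27 against 3.49 and 2.62 (0.74 ± 0.29) and Aspg differed by 1.01 ± 0.33. Of 12912 genes tested, 2.30% were called higher at 21 dpi, 5 of the 8 among them, and nothing is read from that count for the reason given for the ring. Whether the differences in fibrotic spots exceed those in the ring was not tested.

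**Figure D4:**
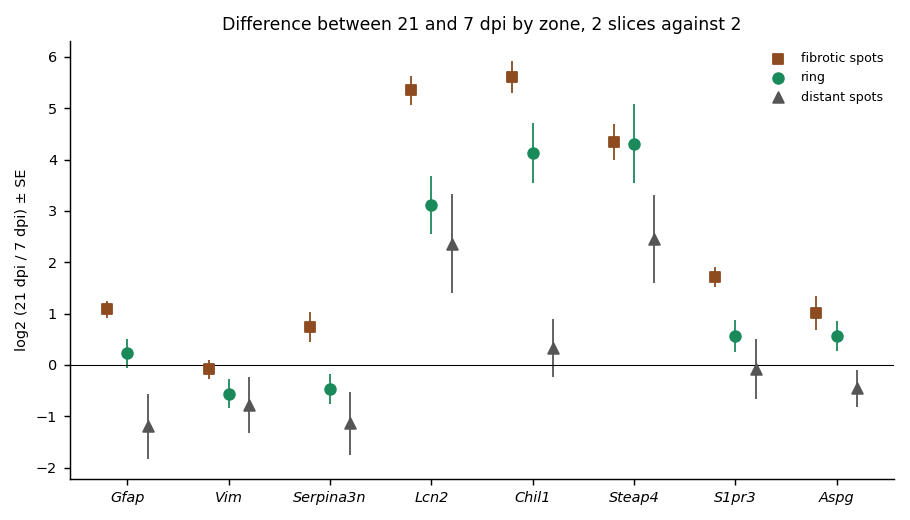
Log2 difference between 21 and 7 dpi (y axis, bars are standard errors derived from the edgeR test statistic) for each gene (x axis) in fibrotic, ring and distant spots, 2 slices against 2. Lcn2, Chil1 and Steap4 lie at 4.34 to 5.62 in fibrotic spots and 3.12 to 4.31 in the ring, Gfap lies at 1.08 in fibrotic spots and 0.22 in the ring, and in distant spots Gfap lies at -1.20.

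In distant tissue edgeR called 0.0215% of 13961 genes between 7 and 21 dpi (the sex-linked Ddx3y, Eif2s3y and Xist, with 571 genes at an unadjusted p under 0.05 and 16 called by DESeq2). It called 0 of the 8, from which nothing is read for the reason given for the ring. Gfap was at 5.91 and 4.99 UMIs per 10000 at 7 dpi and 3.83 and 0.893 at 21 dpi (log2 difference -1.20 ± 0.63), so the groups did not overlap but slice 2 at 21 dpi was far below slice 1. Lcn2 stood at 0.182 and 0.0850 against 1.26 and 0.146 (2.36 ± 0.96), and leaving out single slices moved that difference between 0.10 and 3.17. Steap4, scarce in this zone, stood at 0.00883 and 0.0186 against 0.111 and 0.0247 (2.45 ± 0.85), without overlap. The deleter slices had Gfap at 1.64 and 1.98 and Lcn2 at 0.351 and 0.312 in this zone.

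Marker genes of other cells moved with these differences. In fibrotic spots the neutrophil markers (10 genes) summed to 1.25 and 0.649 UMIs per 10000 in the 7 dpi slices. Their sum stood at 2.39 and 5.09 in the 21 dpi slices. Only 6 neutrophil genes could be tested in fibrotic spots, with 5 log2 differences positive and 1 negative (-1.13). S100a9 (2.51, edgeR adjusted p = 0.00446), Ngp (3.52, 0.0112) and S100a8 (2.20, 0.0314) were called higher. In the ring the sum went from 0.196 and 0.0794 to 0.692 and 0.233, and 5 to 7 of the 10 genes had a UMI in each slice. None of the 3 neutrophil genes that could be tested there was called, with log2 differences of 2.94 for S100a9 (edgeR adjusted p = 0.0544), 1.95 for S100a8 (0.213) and -3.37 for Mmp8 (0.0577). Macrophage and microglia markers in the ring were lower at 21 dpi (39.96 and 32.4) than at 7 dpi (75.2 and 51.3), with Cd68, Adgre1 and Cx3cr1 called lower. In fibrotic spots their sum stood at 117 and 114 against 84.7 and 97.1. Lyz2 alone of the 10 genes was called there, as higher at 21 dpi (0.88, edgeR adjusted p = 0.0366). Most of the list went the other way, with 3 log2 differences positive and 7 negative (median -0.31). Leptomeningeal markers in the ring went from 4.25 and 7.55 to 29.0 and 34.0. The gene Ptgds alone made up 27.4 and 32.8 of the 21 dpi sums, and it already stood at 10.6 over the whole slice at rest. Ptgds and Myoc were called higher among the 5 leptomeningeal genes. Ependymal markers went from 0.580 and 0.423 to 1.20 and 2.72, with Rarres2 and Foxj1 called higher among 5. The part of these cells in the levels of the 8 genes was not tested.

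Homeostatic astrocyte genes gave another measure of astrocyte RNA. Their list was chosen with earlier results of these data known, so the p-values of these homeostatic genes are given as a description. Of 16 such genes, 0 were called by edgeR in the ring, where their median log2 difference between 21 and 7 dpi was 0.42 against 0.04 over all genes, and 14 of the 16 were positive. The summed astrocyte markers in the ring were 29.7 and 27.0 UMIs per 10000 at 7 dpi and 34.9 and 38.2 at 21 dpi, so the slices did not overlap. In distant spots the same sum went the other way, from 42.7 and 38.3 at 7 dpi to 34.1 and 30.9 at 21 dpi. There all 16 homeostatic genes had negative log2 differences (median -0.37), and 0 were called. In fibrotic spots 5 of the 16 rose: Mlc1 (1.16, edgeR adjusted p = 0.00543), Sox9, an astrocyte transcription factor (1.17, 0.00684), Aqp4 (1.10, 0.0105), Slc1a3 (0.87, 0.0138) and S100b (0.71, 0.0448), with a median of 0.58. The highest log2 difference among the 16 was 1.19. In the same spots Gfap differed by 1.08 and Lcn2, Chil1 and Steap4 by 4.34 to 5.62. The part of astrocyte content in these differences was not tested.

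Few genes of the pathway lists, also chosen with earlier results of these data known, passed the test. Of the neurotoxic-type (A1) list, C3, the central complement component, went in the ring from 0.370 and 0.130 UMIs per 10000 to 4.96 and 1.96 (3.80 ± 0.57, edgeR adjusted p = 0.0135), and Serping1, an inhibitor of complement C1, rose by 1.79 (0.00967). Fkbp5 (-1.44, 0.0308) and the immunoproteasome subunit Psmb8 (-1.31, 0.0171) of the same list fell, so 2 of the 12 tested were called higher and 2 lower. In fibrotic spots C3 rose by 4.82 (0.201 and 0.248 to 8.02 and 5.10, edgeR adjusted p = 1.27e-05), with Serping1 and Gbp2 also higher and Fkbp5 lower. Of the 11 A2 genes tested, Emp1 was lower in the ring (-1.20, edgeR adjusted p = 0.0199) and Tgm1 higher in fibrotic spots (3.21, 0.000774).

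In the gp130 to STAT3 route, 1 of 11 genes was called in each zone, the cytokine Cntf, a product of glia (1.62, edgeR adjusted p = 0.0300 in the ring and 1.96, 0.0151 in fibrotic spots). Neither Stat3, Socs3 nor the receptors were called. Among filament partners Nes, typical of early reactive and immature astrocytes, fell by 1.91 in the ring (edgeR adjusted p = 0.0137). Of the other 6 pan-reactive genes, none was called in the ring and Cp, ceruloplasmin, a carrier of copper, rose in fibrotic spots (2.06, edgeR adjusted p = 0.00286).

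The 8 genes fell into sets by their profiles. Over 55 sums of a slice and a distance band, among 12533 genes with enough UMIs, the genes most like Lcn2 were Steap4 (Pearson r = 0.920), Chil1 (0.895) and C3 (0.862), those most like Chil1 were Steap4 (0.951), C3 (0.928) and Lcn2, and those most like Steap4 were Chil1, Lcn2 and C3 (0.897). Gfap was most like Serpina3n (0.932), Cnn3, a calponin (0.906), and Prdx6, a peroxiredoxin of astrocytes (0.890). Serpina3n was most like Gfap, Dhrs1 (0.917) and the tetraspanin Cd9 (0.915), and S1pr3 like A2m (0.896), Cnn3 (0.871) and Prdx6 (0.860).

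Vim was most like Cd44 (0.966), the cytoskeletal linker Msn (0.953) and Arpc1b (0.933), and Aspg like the secreted Igfbp7 (0.871) and Igfbp5 (0.870) and the protease Plat (0.869). Likeness also crossed these sets, with r = 0.710 for Gfap and Lcn2 and 0.812 for Lcn2 and S1pr3. The points share slices, and each library contributes several of them.

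Within single slices, genes with like profiles also went together over spots at 21 dpi. These spots are among those behind the profiles, and whether the sets are apart over spots was not tested. Over the spots of the fibrotic and ring zones, Lcn2 and Chil1 correlated at 0.808 and 0.779 in the 21 dpi slices and 0.850 and 0.769 in the deleter, against 0.213 and 0.079 at 7 dpi, when both were scarce. Gfap and Serpina3n correlated at 0.717, 0.784, 0.784 and 0.670 in those 4 slices and at 0.415 and 0.397 at 7 dpi. Lcn2 correlated with the summed macrophage and microglia markers (0.724, 0.465, 0.676 and 0.541) and hardly with the summed astrocyte markers (0.068, 0.162, -0.008 and -0.009), and its correlation with neutrophil markers was 0.223, 0.265, 0.570 and 0.211. Gfap correlated with the astrocyte markers at 0.178, 0.387, 0.180 and 0.132. None of this assigns a transcript to a cell, since a spot near the lesion holds several of these types.

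The deleter slices were compared with WT slices of the same day. In the ring, 0 of the 8 genes were called by edgeR, as were 0% of 13810 genes (338 had an unadjusted p under 0.05 and DESeq2 called 5). Nothing is read from the count of the 8, which were selected on levels by zone. Lcn2 was at 9.86 and 2.53 UMIs per 10000 in WT and 14.0 and 4.76 in the deleter (0.66 ± 0.69), Chil1 at 2.97 and 0.829 against 4.21 and 1.39 and Gfap at 8.72 and 13.1 against 12.96 and 7.84 (0.01 ± 0.30). In these 3 genes the groups overlapped, and slice 1 of each genotype had over 2 times the Lcn2 of slice 2.

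In fibrotic spots 0 of the 8 were called by edgeR, beside 0.00772% of 12945 genes (the gene Esr1, with 899 at an unadjusted p under 0.05 and 8 called by DESeq2). Again nothing is read from the count of the 8. S1pr3 was lower in both deleter slices, at 0.549 and 0.413 against 0.756 and 0.711 (-0.61 ± 0.17), and Chil1 at 2.27 and 1.73 against 3.25 and 2.34 (-0.48 ± 0.19). Lcn2, at 7.31 and 5.73 against 9.41 and 6.87, overlapped. Genotype and capture area coincide here too.

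Position in the tissue away from the lesion was compared in pairs within slices, on distant spots alone. The levels of distant spots are part of the profiles on which the 8 were selected, though split there by distance and not by myelin or edge. Distance from fibrotic spots within this zone was not matched between the sides of a pair, and its part was not tested. The p-values printed for the 8 genes in these comparisons are therefore given as a description. Myelin-rich spots, the 10 percent of distant interior spots with most UMIs of 8 oligodendrocyte genes, held more Gfap than the other distant spots in 8 of 8 slices. The pairs (myelin-rich and other, UMIs per 10000) were 2.87 and 0.509 at rest, 18.9 and 9.63 at 2 dpi, 9.54 and 5.81 and 17.98 and 3.91 at 7 dpi, 4.37 and 3.90 and 4.08 and 0.526 at 21 dpi and 7.22 and 1.09 and 6.82 and 1.61 in the deleter (log2 difference 1.86 ± 0.23, edgeR adjusted p = 2.83e-06). The smallest gap was in 21 dpi slice 1. Vim was higher in 7 of 8 slices (1.39 ± 0.21, edgeR adjusted p = 2.95e-05), in the slice at rest at 1.17 against 0.298 and at 2 dpi at 21.9 against 10.7, and lower in 21 dpi slice 1.

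Serpina3n was higher in 8 of 8 slices (1.32 ± 0.21, edgeR adjusted p = 5.82e-05), though at rest by little (0.0934 against 0.0863), and at 2 dpi it stood at 6.25 against 2.49. S1pr3 was higher in 6 of 8 (0.60 ± 0.22, edgeR adjusted p = 0.0286). Lcn2 was higher in 4 of 8 (0.51, edgeR adjusted p = 0.164), Chil1 in 6 of 8 (0.48, 0.0705) and Aspg in 6 of 8 (0.56, 0.122), and Steap4 was too scarce to be tested. So 4 of 7 genes tested were called higher, beside 23.3% of 11767 genes, and a further 2868 genes were called lower. The count of the 8 is a description, since they were selected on levels that include these spots.

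Other cells differed between these spots as well. Macrophage and microglia markers stood at 3.59 to 24.0 UMIs per 10000 in myelin-rich and 2.31 to 16.6 in other spots, and astrocyte markers at 24.2 to 47.7 and 24.5 to 44.3. Of 10 macrophage and microglia genes 8 were called higher, as were 9 of 16 homeostatic astrocyte genes, with 1 of the 16 called lower. Also called higher were 4 of 5 ependymal, 4 of 5 endothelial and 3 of 4 leptomeningeal genes tested, but 1 of 5 mural and 1 of 6 fibroblast genes. All 5 of 5 neuronal genes were called lower. The gp130 to STAT3 route had 5 of 9 genes called higher, among them Stat3 (0.89, edgeR adjusted p = 4.84e-06) and Cntf (1.29), and Jak1 lower, and the filament partners Nes (0.85) and Synm (0.96) were also called higher. Their part in the levels of Gfap, Vim and Serpina3n was not tested. Without the pairing within slices, of the 7 tested Gfap alone was called (Vim 1.19, edgeR adjusted p = 0.203, Serpina3n 1.40, 0.119). The call of S1pr3 was lost with DESeq2 (adjusted p = 0.114), without TMM (0.0846) and without the 2 dpi slice (0.39, 0.272), 7 dpi slice 1 (0.60, 0.0537) or 7 dpi slice 2 (0.53, 0.0699).

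At the edge of the tissue, where distant spots border an array position without tissue, 0 of 7 genes tested were called by edgeR against interior spots, as were 0% of 11747 genes (316 had an unadjusted p under 0.05 and DESeq2 called 4). Leptomeningeal markers had a median log2 difference of 2.02 there and fibroblast markers 1.47. Oligodendrocyte markers had -0.76, with 8 of 8 negative, and neuronal markers -0.48. The part of these cells in the levels at the edge was not tested. Serpina3n was lower at the edge in each of the 6 slices with at least 5 such edge spots, among them 0.0596 against 0.0869 UMIs per 10000 at rest, 2.37 against 2.87 at 2 dpi and 0.375 against 0.870 in 21 dpi slice 1 (-0.91 ± 0.32, unadjusted p = 0.0151, edgeR adjusted p = 1). Its edge level rested on 3 UMIs at rest, 1 UMI in 7 dpi slice 2 and 1 UMI in 21 dpi slice 2. Gfap, at 1.39 against 0.723 at rest but 0.592 against 5.19 in 7 dpi slice 2, had no common direction (-0.31 ± 0.42, edgeR adjusted p = 1).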

How the data were processed

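The deposited files hold whole-number UMI counts per gene and spot for 4 capture areas, made by the authors with Space Ranger 2.0.0 on mm10 per the submitters' processing notes. Spot barcodes name array positions, so areas share them by design. Each area was split into 2 connected pieces of tissue, taken as slices. Levels are UMIs of a gene per 10000 UMIs of all genes, summed over the spots of a zone, with exact 95% Poisson intervals for counting error. Spots with at least 5 Col1a1 UMIs per 10000 were fibrotic, and zones were counted in array steps from them (ring 1 to 3, distant 6 and more). Summed counts per slice were tested with edgeR 4.0.16 (TMM, its expression filter, quasi-likelihood test, Benjamini-Hochberg over all genes, threshold 0.05) in R 4.3.3, with DESeq2 1.42.0 as an alternative, and the tests were tried on simulated counts. Standard errors of the edgeR log2 differences were derived from its test, as the absolute difference divided by the square root of the F statistic. Edge and myelin comparisons had the slice as a block. Edge spots have an array position without tissue beside them, and sums needed at least 5 spots, which 6 slices gave. Myelin-rich spots were picked by the summed UMIs of 8 oligodendrocyte genes, whose own levels are not reported here. With 1 slice at rest and 1 at 2 dpi, folds were described without a test. Spot correlations used log2 (UMIs per 10000 plus 1) and profile likeness log2 (UMIs per 10000 plus 0.1) among genes with at least 500 UMIs. Named genes are the 8 genes, the 3 most like each, and those past the threshold from lists of reactive, pathway, homeostatic and cell type genes, up to 6 a list. The 8 genes and the lists were chosen with earlier results of these data known. Each group compared over time or genotype has 2 slices from separate mice, and the p-values of those comparisons measure the spread between these. The p-values of the edge and myelin comparisons measure the spread of the differences within slices, over slices of unlike time points and genotypes. Alternatives changed the Col1a1 minimum, zone widths, filter, normalization, tool, block and slices included. Gene positions follow GRCm38 with GENCODE M21. Figures were drawn with matplotlib 3.10.9. The areas' images were not used here.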

Additional observations from a re-analysis of the deposited data

Results flagged for a closer look

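Chil1 changed sides between time points relative to distant tissue: its mean log2 ratio of ring to distant was -0.93 at 7 dpi, 2.92 at 21 dpi and 3.64 in the deleter, and that of fibrotic to distant spots -2.38, 3.74 and 3.35, with both slices of a group on the same side each time. The difference between the groups was not tested, since the choice of genes used these ratios.

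Away from the lesion, Lcn2 was lower in myelin-rich than in other distant spots in both 7 dpi slices (mean log2 ratio -0.99) and higher in both 21 dpi slices (1.08). The 7 dpi levels in myelin-rich spots rest on 10 UMIs in slice 1 (0.148 against 0.189 UMIs per 10000) and 1 UMI in slice 2 (0.0305 against 0.0948). At the tissue edge, Vim was lower than in interior spots in both slices at 7 dpi (-1.10) and higher in both at 21 dpi (1.35), and Chil1 had means of -0.28 and 1.43. These differences between time points were not tested.

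In single slices, S1pr3 in myelin-rich spots of 21 dpi slice 1 had a log2 ratio of -1.71, far from the other 7 slices, on 3 UMIs in those spots. Serpina3n at the edge of 7 dpi slice 2 had a log2 ratio of -4.35, far from the other 5, on 1 UMI. Chance picks out about 1 in 20 groups in this way.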

How the results depend on the processing

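Over 110 values of single genes, 937 of 1061 recomputations kept the direction and the side of the threshold (or, without a test, stayed within the spread). Calls of the 8 genes over time and genotype are given as counts only, since the 8 were selected on these levels. In the ring, 0 of the 8 genes were called between 7 and 21 dpi with a Col1a1 minimum of 3, and 0 to 3 without single slices. The labels give no replicate numbers that would pair slices of different groups. Without the slice block, 1 gene was called in myelin-rich spots in place of 4, and at the edge Vim turned to -0.074 and S1pr3 to 0.12. With a Col1a1 minimum of 3, log2 differences between 21 and 7 dpi turned to -0.40 for Gfap and -0.046 for S1pr3 (ring), 0.037 for Vim (fibrotic) and -0.090 for Chil1 (distant), the deleter differences in fibrotic spots to 0.057 for Lcn2 and 0.035 for Steap4, and the 7 dpi ratio of fibrotic to distant spots to 0.39 for Gfap. With a minimum of 10, Serpina3n turned to 0.048 (ring, time) and the 7 dpi ratio of fibrotic to distant spots to -0.77 for Lcn2. A ring of 1 to 5 steps turned Gfap to -0.30 over time. In the deleter ring Gfap, at 0.01, went to -0.011 with a ring of 1 to 5 steps, -0.0051 with at least 3 Col1a1 UMIs asked as well, -0.015 with connected groups of fibrotic spots, -0.027 with 1 to 2 steps and -0.069 without TMM. Vim at the edge, with neighbours counted as edge, was -0.14. Without single slices, values ranged over time from -0.087 to 0.52 for Gfap and -0.91 to 0.037 for Serpina3n (ring), -0.29 to 0.093 for Vim (fibrotic), and -0.95 to 0.94 for Chil1 and -1.38 to 0.53 for S1pr3 (distant). In the deleter ring they ranged from -0.41 to 0.32 for Gfap, -0.34 to 0.78 for Vim, -0.29 to 0.80 for Serpina3n, -0.33 to 1.97 for Lcn2, -0.40 to 1.84 for Chil1, -0.26 to 2.25 for Steap4 and -0.32 to 0.62 for S1pr3, in its fibrotic spots from -0.36 to 0.068 for Vim, -0.40 to 0.26 for Steap4 and -0.026 to 0.72 for Aspg, and at the edge from -0.62 to 0.089 for Gfap and -1.11 to 0.086 for S1pr3. Counts of all genes called ranged from 37 to 1615 (531 as reported) in the ring over time, 236 to 1123 (503) in fibrotic spots, 0 to 23 (3) in distant spots, 0 to 16 (0) and 0 to 270 (1) for the deleter, 0 to 4 (0) at the edge and 4195 to 6489 (5606) for myelin. For every change given here the cause was not tested. Low counts limit Steap4 and Aspg most: Steap4 had 4 UMIs at rest and could not be tested in the distant comparisons within slices.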
